A study of Mus musculus with 23 samples.

Results

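Bulk RNA-Seq of mouse whole lung was read for 10 genes that adipocytes are known for, namely Lep, Adipoq, Cfd, Retn, Plin1, Plin4, Cidec, Ucp1, Fabp4 and Angptl4. They were picked by symbol, and all 10 were found among the 55335 genes of the whole-lung table. The list was drawn up after their FPKM values (read fragments of a gene scaled by its transcript length and by library size) in these same 6 libraries were known, so their levels and the difference between the 2 groups are a description and were not tested. The lungs came from C57BL/6J wild-type mice. The 3 control libraries (labelled wt mouse lung) and 3 depleted libraries (labelled pmn deletion mouse lung) made up the groups. Per the study's methods, the depleted mice received an antibody against Ly6G, a surface protein of neutrophils, and the controls received isotype antibody. The methods give 1 injection a day before analysis or 2 injections on the days before it, and which of these the sequenced lungs had is not stated there. The study describes its mice in general as young adults of either sex, and gives no separate age for these lungs. Its results introduce them directly after a depletion experiment in mice of an early age, so their age is not settled. The other 17 libraries of the series were neutrophils sorted on CD45, CD11b and Ly6G. WT neutrophils came from perfused lung, peripheral blood (PB) and bone marrow (BM), with 3 libraries each. A second set held 2 WT and 2 Piezo1-cKO libraries each from lung and PB, the cKO carrying loxP-flanked Piezo1 and Cre under the Vav1 promoter, which is active across blood cells.

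White adipocytes store triglyceride in a single large lipid droplet and secrete hormones. Leptin (Lep) reports fat stores to the brain, and adiponectin (Adipoq), adipsin (Cfd, complement factor D) and resistin (Retn) are the other secreted products in the set. Perilipin 1 (Plin1), perilipin 4 (Plin4) and Cidec coat the lipid droplet or drive its fusion, and Fabp4 carries fatty acids in the cytoplasm. Ucp1 uncouples respiration in brown adipocytes. Angptl4 inhibits lipoprotein lipase, is induced by fasting and by PPAR factors, and is made by many cell types besides adipocytes. Parenchyma of the lung holds lipid-laden fibroblasts but few adipocytes, and fat lies around the large airways, the hilum and the heart.

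Depth differed little between the whole-lung libraries, with a relative depth between 0.914 and 1.16 of that of control 1 as read from the steps between low values. The number of reads behind an FPKM value could not be recovered there, so the counting error of low genes such as Lep is unknown. In the sorted neutrophil tables whole reads were recovered, with library totals estimated at 9620000 to 19330000 reads. The summed level of the 12 neutrophil genes ran from 251 to 295 FPKM in control and from 57.9 to 148 FPKM in depleted lung. Sftpb, a surfactant protein of alveolar type II cells, was between 1868 and 2394 FPKM. Ly6g itself, the antibody's target, was at or below 0.577 FPKM in all 6 libraries and so did not check the labels. With limma, 1 of 13990 genes tested was called between the groups (adjusted p under 0.05, log2 fold change past 0.5 in either direction), which is 0.00715% (higher in depleted 0%, lower 0.00715%). That gene was Aqp5, a water channel of the alveolar epithelium, at 71.5, 84.7 and 73.4 FPKM in control and 23.2, 26.9 and 28.6 FPKM in depleted lung (log2 fold change -1.51 ± 0.10 SE, limma adjusted p = 0.0211). The call was lost without the filter (adjusted p = 0.129) and without control 3, depleted 2 or depleted 3 (adjusted p = 0.0578, 0.0595 and 0.0907).

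The start-site sequences of the members were searched for letters that the adipocyte regulators C/EBP and PPAR are known to read, and for CCAAT and TATAAA. Those of Lep, Plin1 and Adipoq are shown. Adipoq and Plin1 had the highest Pearson r of any member pair over the 6 libraries, and Lep was low relative to both in depleted lung. RefSeq windows of GRCm38.p6, from 250 bases before to 50 after a start site, were held for 8 members in 9 windows. C/EBP letters (TTGCNNAA, either strand) occurred in 3 of these 9 windows and in 10.8% of 32851 windows of all genes. CCAAT or its complement occurred in 2 of 9 and in 37.4% of all, and TATAAA in 0 of 9 and 13.6%. A direct repeat of AGGTCA with 1 base between, the form bound by PPAR with RXR, occurred in 0 of 9 and in 0.0396% of all windows. The sequences run 5′ to 3′ with C/EBP or CCAAT matches in capitals. Lep lies at chr6:29059971-29060270 on the plus strand, Plin1 at chr7:79732727-79733026 on the minus strand and Adipoq at chr16:23146286-23146585 on the plus strand.
Lep: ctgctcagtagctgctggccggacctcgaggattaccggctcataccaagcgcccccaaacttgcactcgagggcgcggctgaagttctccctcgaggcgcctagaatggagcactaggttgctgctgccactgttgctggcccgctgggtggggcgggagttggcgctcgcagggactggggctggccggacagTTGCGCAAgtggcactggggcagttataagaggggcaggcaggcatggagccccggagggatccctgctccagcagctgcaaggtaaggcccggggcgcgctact
Plin1: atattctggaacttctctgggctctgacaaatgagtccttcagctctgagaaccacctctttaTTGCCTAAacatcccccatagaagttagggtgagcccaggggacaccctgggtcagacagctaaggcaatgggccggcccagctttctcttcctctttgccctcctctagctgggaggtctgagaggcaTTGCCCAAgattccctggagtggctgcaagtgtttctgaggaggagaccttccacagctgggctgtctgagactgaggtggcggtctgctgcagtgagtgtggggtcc
Adipoq: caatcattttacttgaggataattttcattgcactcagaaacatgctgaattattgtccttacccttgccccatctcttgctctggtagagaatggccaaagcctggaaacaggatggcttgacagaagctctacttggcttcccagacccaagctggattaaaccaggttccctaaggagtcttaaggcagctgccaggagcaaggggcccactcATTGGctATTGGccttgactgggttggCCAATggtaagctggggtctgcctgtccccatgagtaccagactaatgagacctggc
The Lep match began 55 bases before the start site and 1 of the 2 Plin1 matches began 58 bases before it, while the Adipoq window held 3 CCAAT matches and no C/EBP letters. A match is a run of letters and not a shown binding site.

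Lep was lower in each depleted lung than in any control. Leptin transcript (chr6:29060220-29073877, plus strand) stood at 0.343, 0.504 and 0.964 FPKM in control 1, 2 and 3 and at 0.0839, 0.251 and 0.129 FPKM in depleted 1, 2 and 3. Control 3 was the highest and depleted 1 the lowest of the 6. The mean was 0.604 ± 0.322 (SD, n = 3) in control and 0.154 ± 0.0863 (SD, n = 3) in depleted lung, which is 3.91-fold higher in control. On the log2(FPKM + 1) scale the difference was only -0.46, since a pseudocount of 1 exceeds these values, and with a pseudocount of 0.1 it was -1.42. The gene stayed below 1 FPKM in all 6 libraries, and it therefore did not enter the fit across genes. Groups that do not overlap were found for 2 of the 10 members, Lep and Angptl4, and for 16.1% of the 19142 genes above 0 in every library, so the separation alone does not set Lep apart. In bulk tissue, fewer cells of a type and less RNA per cell cannot be told apart.

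Angptl4 was the other separated member, in the opposite direction. Its transcript (chr17:33773750-33781830, minus strand) stood at 6.65, 6.28 and 5.17 FPKM in control and at 12.4, 8.60 and 19.999 FPKM in depleted lung, where the mean was 2.27-fold that of control (13.7 ± 5.80 against 6.03 ± 0.771, SD, n = 3). The control libraries lay within 1.29-fold of each other and the depleted libraries spread 2.33-fold. Its order within both groups was the reverse of that of Adipoq, Cfd and Retn: control 3 was the lowest control and depleted 2 the lowest depleted library.

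**Figure D1:**
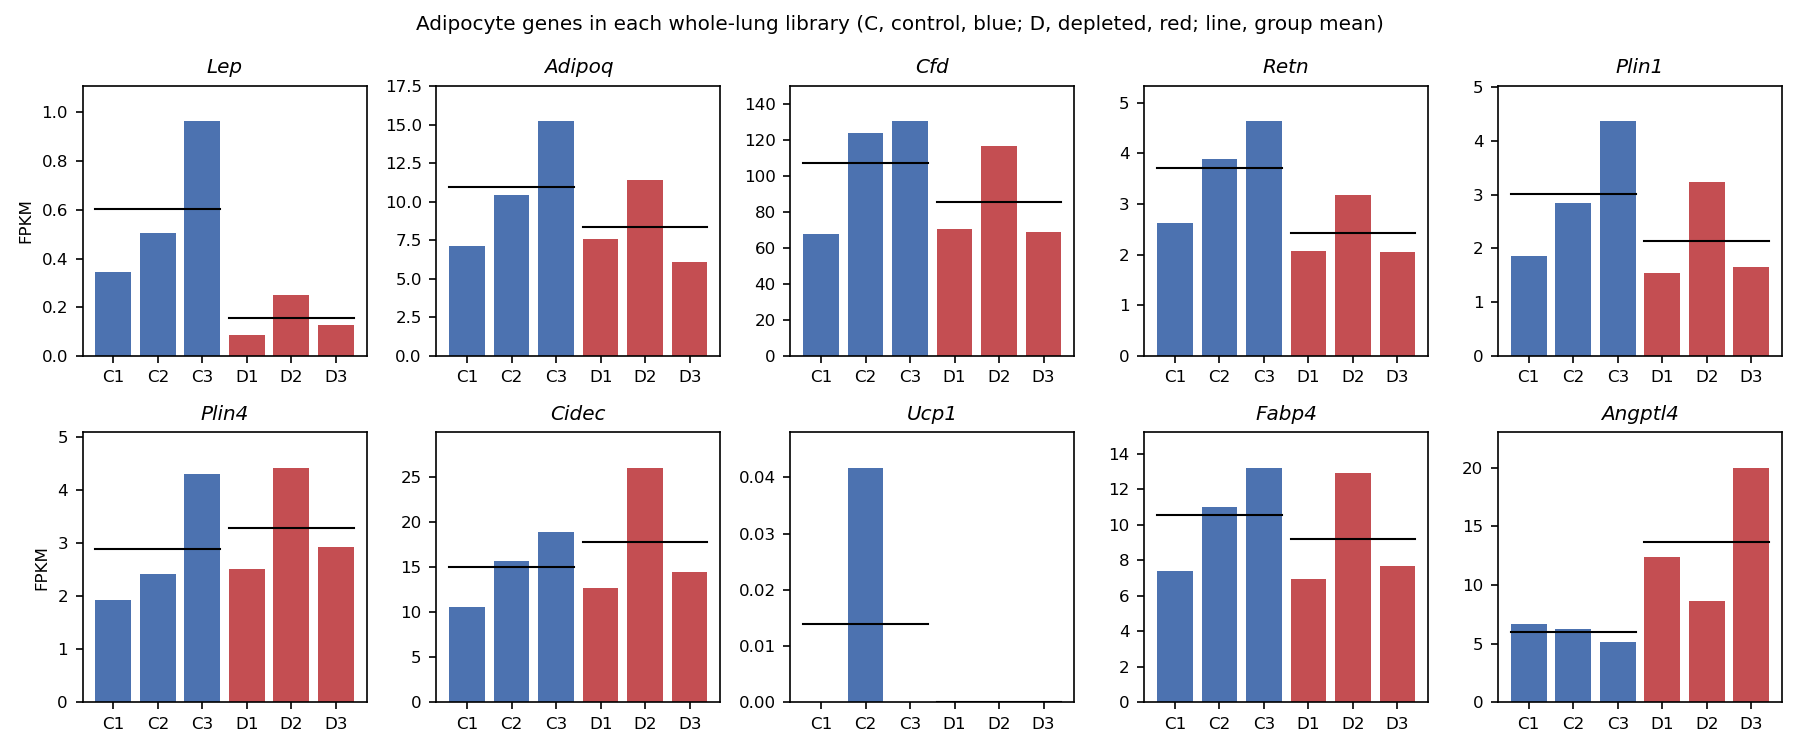
FPKM of each of the 10 members in every whole-lung library (y axis, linear from 0, own scale per gene; C1 to C3 control, blue; D1 to D3 depleted, red), with a line at each group mean. For 8 members C3 is the highest control and D2 the highest depleted library, and only Lep and Angptl4 have groups that do not overlap.

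The secreted products Adipoq, Cfd and Retn varied more among libraries of 1 group than between the groups. Adiponectin transcript (chr16:23146536-23158028, plus strand) was at 7.13, 10.5 and 15.2 FPKM in control and at 7.58, 11.4 and 6.10 FPKM in depleted lung. Adipsin (chr10:79890853-79892655, plus strand), the highest member, was at 67.7, 123.8 and 130.6 FPKM in control and at 70.6, 117 and 68.8 FPKM in depleted lung. Control 1 resembled depleted 1 and 3 in both genes, and depleted 2 lay beside the upper controls. Resistin (chr8:3655770-3660110, plus strand) was at 2.63, 3.89 and 4.63 FPKM in control and at 2.07, 3.18 and 2.05 FPKM in depleted lung. Its groups overlapped through depleted 2, and the mean was 1.53-fold higher in control (3.71 ± 1.01 against 2.43 ± 0.644, SD, n = 3).

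The lipid droplet genes had the same order of control libraries and again depleted 2 on top, with depleted 3 rather than depleted 1 next. Plin1 (chr7:79720218-79732903, minus strand) was at 1.85, 2.85 and 4.37 FPKM in control and at 1.55, 3.23 and 1.65 FPKM in depleted lung. Cidec (chr6:113424634-113435760, minus strand) was at 10.5, 15.7 and 19.0 FPKM in control and at 12.7, 26.1 and 14.5 FPKM in depleted lung. Plin4 (chr17:56100591-56109803, minus strand) was at 1.93, 2.42 and 4.31 FPKM in control and at 2.52, 4.43 and 2.94 FPKM in depleted lung. All 3 groups of values overlapped, and for Cidec and Plin4 the highest of the 6 libraries was depleted 2. Fabp4 (chr3:10204088-10208576, minus strand) was at 7.42, 11.0 and 13.2 FPKM in control and at 6.92, 12.9 and 7.69 FPKM in depleted lung. Ucp1 (chr8:83290352-83298452, plus strand) was listed at 0 in 5 libraries and at 0.0417 FPKM in control 2.

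Across the set, 8 of 10 members passed the filter of 1 FPKM in at least 3 libraries, and Lep and Ucp1 did not. Of these 8, 5 had a log2 difference below 0 and 3 above 0, with a median of -0.25 beside -0.04 over all 13990 genes tested, of which 61.5% lay below 0. These signs rest in part on single libraries: leaving out 1 library at a time gave Plin4 a difference from -0.01 to 0.41 and Cidec one from -0.10 to 0.38, and brought Adipoq as near to 0 as -0.08 and Fabp4 as near as -0.03. Apart from Ucp1 and Angptl4, every member had the order control 3, control 2, control 1, and depleted 2 as its highest depleted library. Over the 6 libraries the Pearson r of log2(FPKM + 1) was 0.969 between Adipoq and Plin1 (Spearman rho 0.829), 0.961 between Cfd and Fabp4 (rho 0.771) and 0.909 between Plin4 and Cidec (rho 0.829). With Adipoq, Lep had r = 0.815 (rho 0.6) and Angptl4 r = -0.746 (rho -0.714). These are descriptions over 6 points that share a library, its depth and its piece of tissue.

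Lep was low in the depleted lungs also relative to the other detected members in the same library. Which cells made those other transcripts was not tested. For each FPKM of Adipoq, control lungs held 0.0481, 0.0482 and 0.0633 FPKM of Lep, and depleted lungs 0.0111, 0.0220 and 0.0211 FPKM. The mean ratio was 2.95-fold higher in control (0.0532 ± 0.00872 against 0.0181 ± 0.00607, SD, n = 3). Depleted 2, in which Adipoq was as high as in control 2, held 0.251 FPKM of Lep against 0.504. The Lep ratio separated the groups with each of the 8 other detected members as the denominator (Lep itself was already separated). These 8 ratios share 1 numerator and are not separate observations. Against the same kind of denominators, Retn was separated and lower in 5 of 8, with Angptl4 as 1 of those denominators. Angptl4 was separated and higher in only 2 of 8, those with Lep and Retn, and its ratio to Adipoq overlapped between the groups. Plin4 and Cidec were each separated and higher in 6 of 8, with Lep as 1 of those denominators. The share of separated ratios over other genes was not computed, so these counts have no background beside them. Cfd for each FPKM of Adipoq was 9.48, 11.8 and 8.57 in control and 9.31, 10.2 and 11.3 in depleted lung, so the ratio of these 2 hormones stayed within 1.38-fold over all 6 libraries. Plin4 and Cidec were higher relative to Adipoq in every depleted library, with mean ratios 1.53-fold and 1.499-fold those of control.

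**Figure D2:**
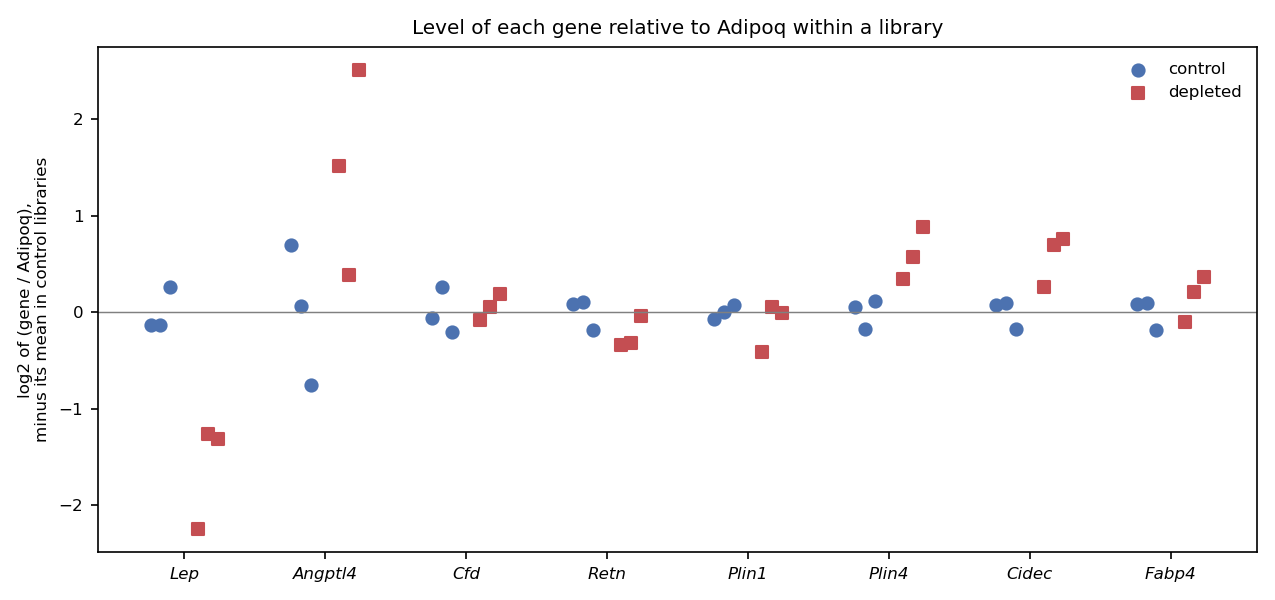
Level of 8 members divided by Adipoq in the same library, as log2 minus the mean of the control libraries (y axis; blue circles, 3 control libraries; red squares, 3 depleted libraries). The Lep points of the depleted libraries lie below all controls, the Plin4 and Cidec points above, and the Cfd and Plin1 points overlap.

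The single genes closest to the members over the 6 libraries included genes of lung and airway epithelium. Genes with a small SD over the libraries were not ranked. Among 467 tested genes with an SD of at least 0.5, the 12 nearest to the mean of the 8 members (r from 0.872 to 0.96) included Nkx2-1, a transcription factor of lung epithelium, at 22.4, 68.8 and 63.0 FPKM in control and 24.6, 60.2 and 23.5 FPKM in depleted lung. Rnasek, a small membrane protein gene, was at 18.2, 41.6 and 42.7 FPKM in control and at 17.8, 40.3 and 18.0 FPKM in depleted lung. Both were high in control 2, control 3 and depleted 2 and low in the other 3 libraries, and the airway secretory gene Bpifa1 was at 291, 526 and 599 FPKM in control and 381, 639 and 248 FPKM in depleted lung. The other 9 were 1810055G02Rik, Gm10260, Gm15516, Qdpr, Usf3, Slirp, Ltf, Fbxo34 and ENSMUSG00000118164, of which Ltf is also on the neutrophil list. None of the 12 was called between the groups by limma (adjusted p from 0.703 to 0.971). The 6 genes nearest to Lep (r from 0.877 to 0.957) were Gm44341, Atf3, Gm13205, Krcc1, Mir7026 and Trp53i11. Atf3, a stress-induced transcription factor, was at 4.50, 8.27 and 10.2 FPKM in control and 3.98, 4.21 and 3.88 FPKM in depleted lung, and none of the 6 was called (limma adjusted p from 0.151 to 0.605).

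**Figure D3:**
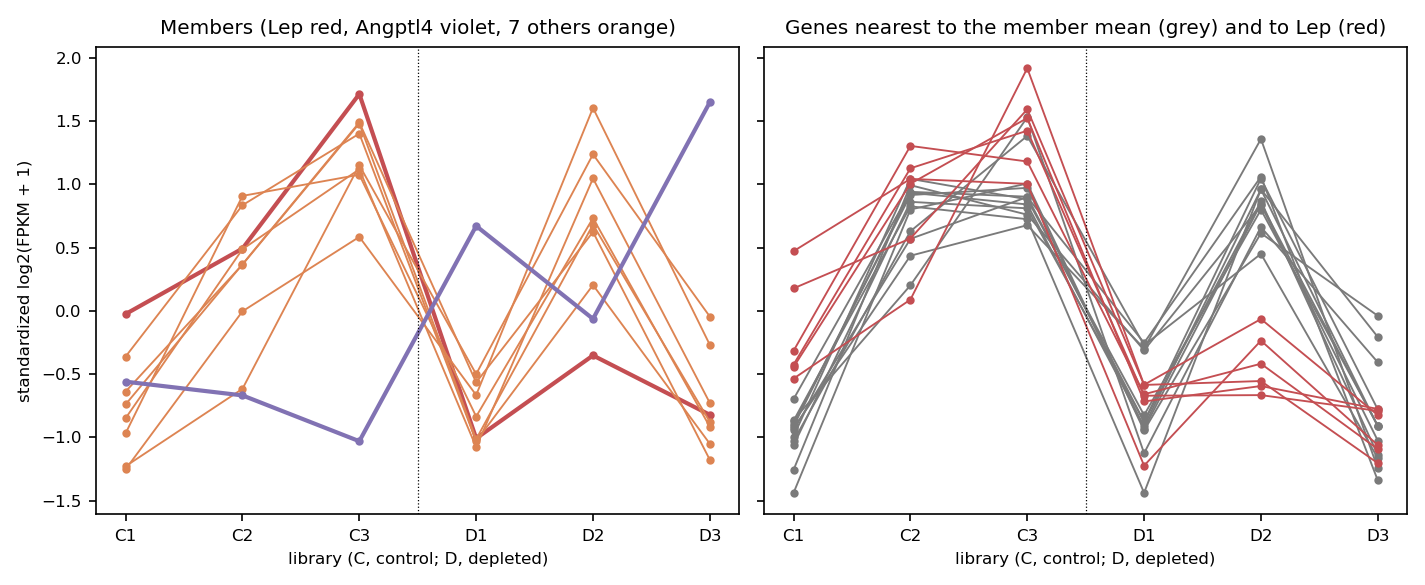
Standardized log2(FPKM + 1) over the 6 libraries (C1 to C3 control, D1 to D3 depleted; each line joins the values of 1 gene and implies no order) for 9 members on the left and for the genes nearest to the member mean (grey) and to Lep (red) on the right. Grey genes peak in C2, C3 and D2, and 5 of the 6 genes near Lep lie below all controls in the 3 depleted libraries, Gm13205 being the exception.

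Markers of tissue that can be taken with a lung moved with the members in part. The summed level of the 6 mesothelium genes was 163, 225 and 230 FPKM in control and 179, 217 and 176 FPKM in depleted lung, in the member order (r = 0.935 with the member mean over 6 libraries). Its most abundant gene was Krt19, an intermediate filament of mesothelium and other epithelia. Krt19 was at 91.9, 122 and 129.5 FPKM in control and 90.9, 129.2 and 100.7 FPKM in depleted lung. The order of the sum was not that of each gene, and control 3 was the highest control for 2 of the 6. Upk1b was lowest in depleted 2, at 14.3, 10.9 and 15.1 FPKM in depleted 1, 2 and 3. The summed capillary endothelium genes ran the other way, from 971.5 to 1231 FPKM in control and from 935 to 1112 FPKM in depleted lung (r = -0.945). The skeletal muscle list summed to 9.47 to 13.0 FPKM in control and 8.91 to 11.1 FPKM in depleted lung, with Myh4 listed at 0 throughout. The cardiac muscle list, whose genes lung vein walls also express, summed to 185 to 289 and 205 to 258 FPKM. The 8 alveolar macrophage genes, of a cell resident in the lung, summed to 809, 951 and 992 FPKM in control. In depleted lung they summed to 922, 937 and 929 FPKM (r = 0.752 with the member mean). The part of these cells, of pleura and of other attached tissue in the member levels was not tested.

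Further adipocyte genes, none of them members, gave no call. The neutrophil list, whose cells were the depleted ones, also gave 0 calls among 10 tested genes, at a median of -1.41. The lack of a call in this fit therefore does not show a lack of change, here or on the lists below. Of 38 genes on a white and a brown adipocyte list, 30 were tested and 0 were called by limma beside the 0.00715% of all genes, and 7 had an unadjusted p below 0.05 (4 higher, 3 lower) where 11.2% of all genes did. Their median log2 fold change was 0.04, with 13 below 0 and 17 above 0. On the white list, Cebpa, a transcription factor of adipocytes that lung epithelium also makes, was at 57.7, 59.2 and 61.6 FPKM in control and 59.9, 63.4 and 65.3 FPKM in depleted lung. Car3, an adipocyte carbonic anhydrase, followed the member order at 26.2, 39.7 and 58.1 FPKM and 27.8, 43.2 and 25.4 FPKM. Lpl, lipoprotein lipase, stayed between 22.2 and 28.3 FPKM in all 6 libraries (log2 fold change 0.00 ± 0.10 SE, limma adjusted p = 0.993). Summed, the white list gave 204, 235 and 266 FPKM in control and 211, 249 and 234 FPKM in depleted lung, and its sum followed the member mean with r = 0.935 over the 6 libraries, the same value as for mesothelium.

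Brown adipocyte genes differed widely in level. Of 14, 9 were tested, and the other 5 stayed below 1 FPKM in all libraries, with Zic1 listed at 0 in all 6. Fabp3, a fatty acid carrier of heart and brown fat, was at 13.3, 13.6 and 19.3 FPKM in control. In depleted lung it was at 18.2, 22.7 and 22.2 FPKM (log2 fold change 0.44 ± 0.15 SE, limma adjusted p = 0.359). Cox8b, a respiratory subunit of muscle and brown fat, was at 5.55, 8.71 and 10.3 FPKM in control and 4.56, 5.41 and 5.12 FPKM in depleted lung (log2 fold change -0.57 ± 0.19 SE, limma adjusted p = 0.346).

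Genes around the members' pathways were tested in the same fit, and 0 were called on any of these lists. Of the 8 tested genes of the PPAR and fasting response, 6 lay above 0 with a median of 0.32, and 4 were higher and 1 lower at an unadjusted p below 0.05, where 3.53% of all genes were higher and 7.69% lower. Pdk4, a kinase that shuts off pyruvate oxidation in fasting and was picked out after its values were seen, was at 2.30, 3.17 and 3.09 FPKM in control and 5.36, 10.7 and 10.1 FPKM in depleted lung (log2 fold change 1.29 ± 0.24 SE, limma adjusted p = 0.155). Cpt1a, the gate of mitochondrial fatty acid entry, was at 19.0, 18.3 and 14.8 FPKM and 19.2, 25.8 and 21.9 FPKM (adjusted p = 0.409 by limma). On the lipid list 0 of 20 were called, 4 were lower at an unadjusted p below 0.05 where 7.69% of all genes were, and Scd1, the desaturase that makes oleate, was at 1103, 932 and 940 FPKM in control and 828, 407 and 570 FPKM in depleted lung (log2 fold change -0.78 ± 0.24 SE, limma adjusted p = 0.296).

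Receptors for the hormones were present in all 6 libraries. Of 11 genes of leptin, adiponectin and resistin reception, 11 were tested and 0 called, with a median log2 fold change of 0.03. Lepr, the leptin receptor, also picked out after its values were seen, was at 12.9, 9.45 and 10.8 FPKM in control and 11.8, 12.1 and 13.0 FPKM in depleted lung (log2 fold change 0.15 ± 0.11 SE, limma adjusted p = 0.667). Adipor1, an adiponectin receptor, was between 38.7 and 41.7 FPKM in all libraries, and Cap1, proposed as a resistin receptor, between 96.4 and 107 FPKM.

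**Figure D4:**
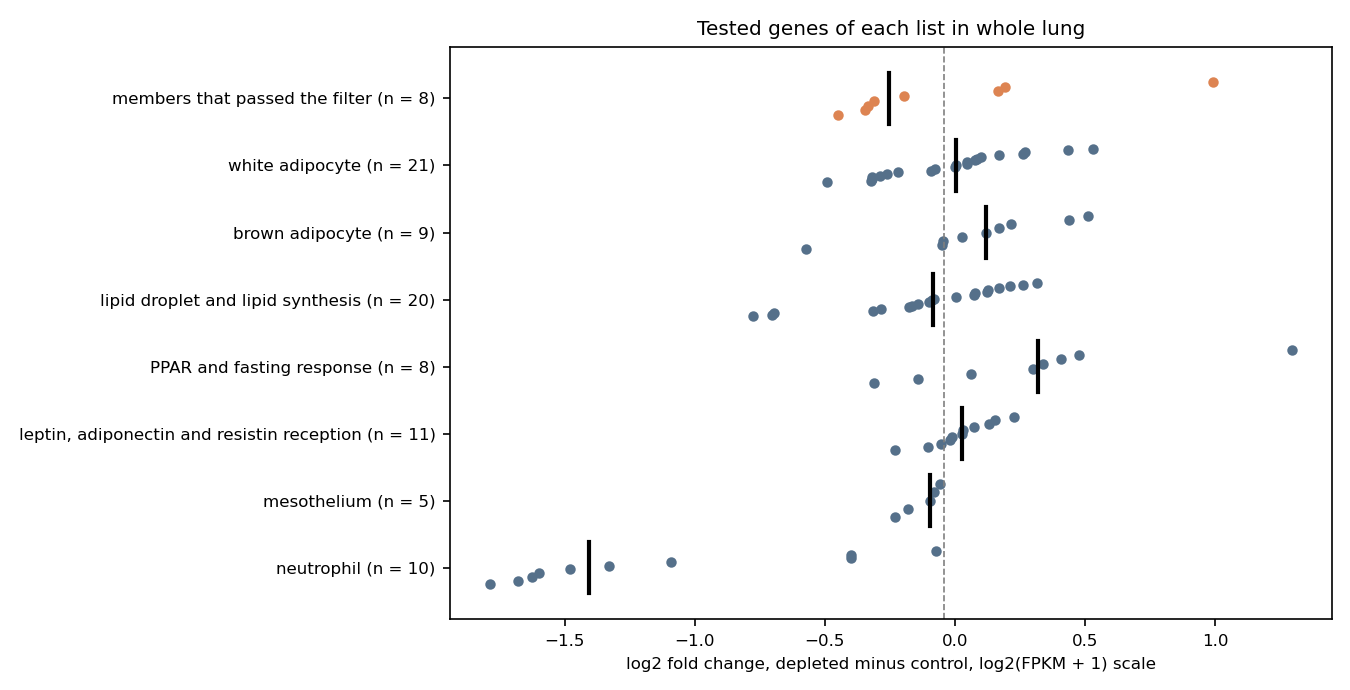
Log2 fold change of depleted minus control lung (x axis, log2(FPKM + 1) scale) for each tested gene of the members and of 7 gene lists, with a bar at each median and a dashed line at the median of all genes tested, -0.04. The neutrophil list has a median of -1.41, and the adipocyte lists lie around the dashed line.

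Sorted neutrophils carried Retn, and those of the first WT set also Plin4, but they held hardly any of the other members. In 17 neutrophil libraries, Lep had at most 2 reads, Cfd, Plin1 and Angptl4 at most 3, Adipoq at most 5, Ucp1 at most 7, Fabp4 at most 8 and Cidec at most 11, beside a floor of 3 reads for a count of 0. Plin4 reached 180 reads and was at 1.12 ± 0.431 FPKM in PB, 0.61 ± 0.0931 in BM and 0.441 ± 0.0597 in lung neutrophils (SD, n = 3). In the Piezo1 experiment Plin4 was far scarcer, with 0 reads in both WT lung libraries and 3 and 2 reads in the cKO ones. Blood neutrophils there held 6 and 9 reads in WT mice, against 21 and 19 in cKO mice. Retn was detected in all 17. Its level was 11.2 ± 0.656 FPKM in lung, 11.3 ± 1.55 in PB and 3.13 ± 0.752 in BM neutrophils of WT mice (SD, n = 3).

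The rule for the members used the whole-lung table, and Retn, the one member that passed the filter in each neutrophil comparison, was tested there, though it was picked with its neutrophil levels known. Between lung and BM, 45.9% of 8236 genes were called at an absolute log2 fold change above 1. Of these, 812 were higher in lung and 2965 lower. Retn was called higher in lung (1.58 ± 0.12 SE, limma adjusted p = 4.73e-07) beside a median of -0.70 over all genes. Between lung and PB, where 27.2% of 7577 genes were called and the median was -0.54, Retn differed by -0.01 ± 0.10 SE (limma adjusted p = 0.900). After rescaling by the median ratio that difference was 0.57 with an adjusted p of 0.000864, so its position relative to the other genes depends on the scaling. In the Piezo1 experiment Retn was at 13.6 and 11.9 FPKM in WT and 7.97 and 8.23 FPKM in cKO lung neutrophils (log2 fold change -0.59 ± 0.08 SE, limma adjusted p = 0.00114). The difference was under the fold threshold of 1, past which 0.995% of 6434 genes were called. PB neutrophils of the same experiment held 17.3 and 17.2 FPKM in WT and 10.6 and 12.8 FPKM in cKO, and that difference was not tested.

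**Figure D5:**
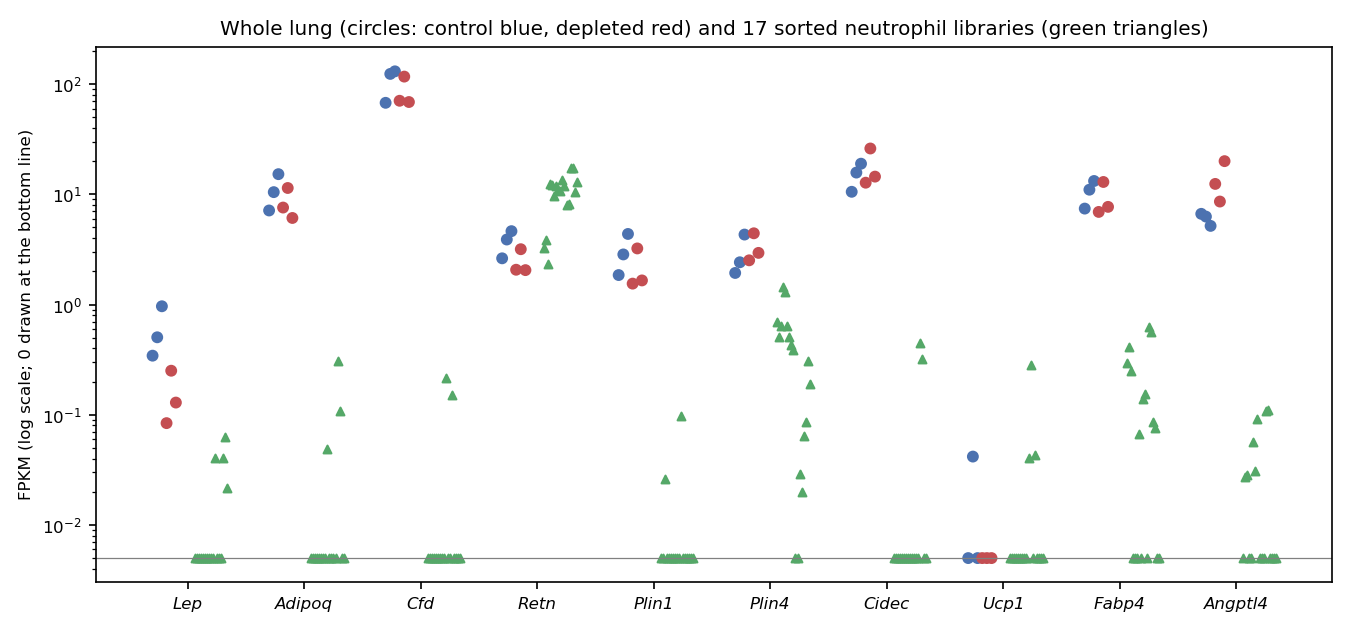
FPKM of each member on a log axis in 6 whole-lung libraries (circles, control blue, depleted red) and in 17 sorted neutrophil libraries (green triangles), with values of 0 drawn on the bottom line. Retn is higher in most neutrophil libraries than in whole lung, and for the other members except Ucp1 every whole-lung value is the higher one.

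Since neutrophils carry Retn and were the depleted cells, its level was set beside transcripts they are rich in. For each 1000 FPKM of S100a9, an abundant neutrophil calcium-binding protein, sorted neutrophils held between 0.043 and 0.532 FPKM of Retn (17 libraries). Whole lung held between 19.0 and 113 FPKM of Retn for each 1000 FPKM of S100a9 (6 libraries). For each 1000 FPKM of Retnlg, a resistin-like gene of neutrophils, the ranges were 0.268 to 5.51 and 48.9 to 219. With S100a8 the ranges were 0.037 to 0.605 and 63.7 to 303, and with Csf3r, a cytokine receptor, 3.21 to 13.2 and 207 to 1160. The whole-lung ratio lay above the neutrophil range for all 4 transcripts. The part of neutrophils in the whole-lung Retn level was not tested, and the library kit behind each kind of sample is not settled. S100a9 itself was at 138, 107 and 108 FPKM in control and 57.0, 52.0 and 18.2 FPKM in depleted lung (log2 fold change -1.60 ± 0.40 SE, limma adjusted p = 0.231).

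Family relatives of the members showed 0 calls among 11 tested of 14. Retnla, a resistin-like gene of alternatively activated macrophages, was at 194, 347 and 232 FPKM in control and 163, 157 and 288 FPKM in depleted lung. Ucp2, the uncoupling protein of immune cells, was at 36.7, 39.6 and 43.1 FPKM and 50.9, 60.9 and 49.5 FPKM, with groups apart (log2 fold change 0.42 ± 0.10 SE, limma adjusted p = 0.227). Plin2, the perilipin of most non-adipocyte lipid droplets, stayed between 32.3 and 41.6 FPKM in all 6 libraries (log2 fold change 0.08 ± 0.10 SE, limma adjusted p = 0.824).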

How the data were processed

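Whole lung (3 control, 3 depleted libraries) and sorted neutrophils (17 libraries) were profiled by bulk polyA RNA-Seq. The labels and the study's methods name different library kits, and which kit made which library is not settled. The authors deposited FPKM values per gene; the submitters' processing notes name fastp, HISAT2, HTSeq and build mm10, with versions not given in the sources used here. FPKM divides by depth and gene length, so a change in abundant genes shifts the rest. Columns of the authors' own comparisons were not used. limma 3.58.1 (R 4.3.3, trend) was fitted to log2(FPKM + 1) of genes at 1 FPKM or more in at least 3 libraries (2 for Piezo1) with Benjamini-Hochberg adjustment, and the scripts were tested on simulated data. Calls needed an adjusted p under 0.05 with a log2 fold change past 0.5 (whole lung) or 1 (neutrophils) in size. Members, lists and comparisons were chosen with earlier results of these data known. Named genes were the members, called list genes, up to 3 most abundant genes of each list described, and the 12 and 6 genes nearest to the member mean and to Lep. Replicates are separate samples by label. The study gives 3 mice for the first WT neutrophil set (lung, PB and BM). Nothing states separate animals for each whole-lung or Piezo1 library, so p-values there measure the spread between samples. Alternatives were another pseudocount, no filter, rescaling, a replicate block, each library left out, and adjusted p alone.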

Additional observations from a re-analysis of the deposited data

How the results depend on the processing

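The count of called genes in whole lung was small and moved with the settings. It was 1 in the report, 4 with a pseudocount of 0.1, 0 without the filter and 5 with the replicate block. Leaving out 1 library gave 0 to 12 calls: 12 without depleted 1, 5 without control 2, 4 without control 1, 1 without depleted 2 and 0 without control 3 or without depleted 3. The call of Aqp5 was lost without the filter and without control 3, depleted 2 or depleted 3. The listed adipocyte genes gave 0 calls in all 11 alternatives, the replicate block included. Adjusted p alone gave 6479 calls against 2063 for lung and PB neutrophils, 7628 against 3777 for lung and BM, and 3265 against 64 for Piezo1-cKO and WT, where a pseudocount of 0.1 gave 332. The deviations of same-numbered samples correlated at 0.0593 or below in every pair, so the numbers were not taken to pair the samples. Leaving out 1 library kept the Lep difference between -0.58 and -0.30 and the Angptl4 difference between 0.70 and 1.26, while Plin4 (-0.01 to 0.41) and Cidec (-0.10 to 0.38) crossed 0. Low FPKM values, such as those of Lep and Ucp1, rest on an unknown number of reads.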

Other observations

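Liver transcripts appeared in 1 whole-lung library. Alb, serum albumin, was at 17.4 FPKM in control 1 and between 0.321 and 0.689 FPKM in the other 5 libraries, and the 6 liver genes summed to 32.9 FPKM in control 1 and to at most 2.16 FPKM elsewhere. Scd2, a desaturase, was at 182.6 FPKM in control 2 and between 46.6 and 59.5 FPKM in the others. Mgll, which releases the last fatty acid of triglyceride, was at 10.1 FPKM in control 2 and 9.46 FPKM in depleted 2 and between 21.9 and 24.1 FPKM in the other 4 libraries. All of these were picked out after their values were seen.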
